A study of Mus musculus with 4 samples.

Results

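The genes described here are 7 members of the leukemia inhibitory factor (LIF) pathway in mouse embryonic stem cells (ESCs), chosen by symbol from the 32285 genes of a single-cell RNA-seq table. They are the receptor subunits Lifr and Il6st, the kinase Jak1, the transcription factor Stat3, and the STAT3 target genes Socs3, Pim1 and Pim3. The cells were E14tg2a.4 ESCs, a feeder-free mouse line, either wild type (WT, 2 samples) or heterozygous for a gene trap that truncates Srrm2 (Srrm2 hKO, 2 samples). The hKO cells are a single gene-trap line, CG0630, so line and genotype cannot be told apart. All samples received LIF. The labels give 24 h or 72 h in the serum-free medium ESGRO without saying which sample had which time, and the methods of the study name a time between these for the single-cell cultures, so the time in culture is not certain. The table numbers its libraries 1 to 4 and nothing in the sources used here ties a number to a sample, so no WT against hKO comparison was made. Levels are therefore given by library number, as single cultures without replicates.

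LIF, a cytokine of the interleukin-6 family, binds LIFR, which pairs with gp130, the product of Il6st. The JAK1 kinase bound to these receptors phosphorylates STAT3, which dimerises, enters the nucleus and activates genes. In mouse ESCs this route sustains self-renewal, and Klf4, Tfcp2l1 and Pim genes are among its known targets. Socs3 encodes the feedback inhibitor that binds gp130 and JAK1 and shuts the signal down, while Pim1 and Pim3 encode serine/threonine kinases that promote survival. STAT3 itself is controlled by phosphorylation, which RNA counts do not measure.

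The members lie on 5 chromosomes in the GENCODE M21 annotation of GRCm38, the assembly behind the mm10 build of the table. Lifr spans chr15:7090614-7197489 and Il6st spans chr13:112464070-112510086, both on the plus strand. Jak1 lies at chr4:101152367-101265282, where the span of the predicted gene Gm12785 overlaps it on the same minus strand. Whether their exons overlap, and whether this touched the Jak1 counts, was not checked. Stat3 lies at chr11:100885098-100939540 on the minus strand and overlaps its neighbour Stat5a on the opposite strand. Socs3, a gene of 2 exons, lies at chr11:117966079-117970047 on the minus strand. Pim1 (chr17:29490753-29496112) and Pim3 (chr15:88862186-88865726) are short genes on the plus strand.

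STAT3 dimers are known to bind the palindrome TTCNNNGAA, and the stretch upstream of Socs3 is shown because it was the only member promoter with these letters. RefSeq promoters of 300 bases (250 before and 50 after the start, GRCm38.p6) were found for all 7 members, 9 windows in all, and the motif was searched on both strands, which read alike. It was present in 1 of the 9 member windows, against 2726 of 32851 promoters (8.3%). The 50 other genes of the pathway list had 53 windows for 39 genes, and 4 windows (7.55%) held it, those of Cish, Gab1 and Icam1. The stretch printed is chr11:117969452-117969616 on the minus strand, 165 bases that end just before the first annotated Socs3 exon inside the window. It lies upstream of the RefSeq start and within the first intron of a noncoding GENCODE transcript that begins farther upstream. The capitals mark the motif, which begins 154 bases before the RefSeq start.
Socs3 upstream: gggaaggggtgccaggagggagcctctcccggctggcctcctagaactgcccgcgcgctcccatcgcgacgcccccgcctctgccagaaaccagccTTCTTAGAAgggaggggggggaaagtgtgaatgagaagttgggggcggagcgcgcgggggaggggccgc
A match of letters in this window is a description and does not show that STAT3 was bound there.

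The table held 31989 of 41142 barcodes after the cell filter that the study describes was applied again (the study states a slightly lower total), 7464 to 8514 per library, with median depths of 18378 to 21898 UMIs (unique molecular identifiers, each a counted transcript) and 166839268 to 200180473 UMIs per library. Srrm2, the targeted gene, ranged from 238 to 533 counts per 1000000 UMIs (CPM) over the 4 libraries, and this level was not used to assign a genotype. Levels below are CPM over the kept cells of a library or cell group, with exact 95% Poisson intervals that cover counting error only. Levels were not compared between genes, since 3′ counts of different genes are not on one scale. Pou5f1 and Sox2, which mark pluripotent cells, summed to 970 to 1266 CPM. A list of naive markers summed to 3257 to 6781 CPM and one of formative markers to 788 to 1745 CPM, naive being the earlier pluripotent state and formative the one that precedes lineage choice. Dppa5a alone gave 2424 to 5161 CPM of the naive sum, and Utf1 gave 507 to 586 CPM of the formative sum. The naive sum, used below to rank clusters and cells, thus rests mostly on Dppa5a. Dppa3 on the same list was at 24.4 CPM in library 1, where the naive sum was highest, and at 74.0 CPM in library 2. Lists for primitive endoderm (0.589 to 1.51 CPM), primed or streak cells (1.55 to 4.42 CPM) and 2-cell-like cells (0.172 to 0.916 CPM) were low, and the fibroblast list was at 2.24 to 11.6 CPM, highest in library 3. The trophectoderm list reached 24.6 to 48.6 CPM, of which 23.2 to 48.3 CPM was Tfap2c, a gene that naive ESCs also express. Among the kept cells, 105 of 31883 barcode sequences occurred in more than 1 library.

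Between whole libraries, the receptor subunit Il6st varied more than its partner Lifr. Lifr was at 27.6 CPM in library 1, 27.7 in library 2, 23.0 in library 3 and 21.8 in library 4. The counting intervals of libraries 1 and 2 overlapped, as did those of libraries 3 and 4, and the highest level was 1.27-fold the lowest (interval 1.22 to 1.32). Il6st was at 22.9, 23.5, 18.2 and 14.7 CPM in libraries 1 to 4. Libraries 1 and 2 overlapped, library 4 was lowest, and the span was 1.60-fold (1.53 to 1.68).

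Jak1, the receptor-bound kinase, had another order than the receptors. Its levels in libraries 1 to 4 were 33.1, 25.3, 38.3 and 26.5 CPM, a span of 1.51-fold (1.46 to 1.57). Libraries 2 and 4 overlapped and lay below libraries 1 and 3. Stat3 was at 48.3, 41.7, 45.5 and 39.0 CPM in the same order. No 2 libraries overlapped for Stat3, yet the span was only 1.24-fold (1.20 to 1.28).

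Socs3, the feedback inhibitor, was the steadiest of the members over the whole libraries. Library 1 was at 41.8 CPM (40.8 to 42.8), library 2 at 39.9 (39.1 to 40.8), library 3 at 38.4 (37.5 to 39.4) and library 4 at 40.0 (39.1 to 41.0). Neighbours in this order overlapped throughout, and the span was 1.09-fold (1.05 to 1.12). Pim1 levels were 94.5, 59.4, 101 and 58.3 CPM from library 1 to library 4, a span of 1.73-fold (1.69 to 1.77), the widest of the 7. As for Jak1, libraries 2 and 4 overlapped and lay below libraries 1 and 3. Pim3 was at 108, 95.0, 90.8 and 76.0 CPM, with no overlap and a span of 1.42-fold (1.39 to 1.45).

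**Figure D1:**
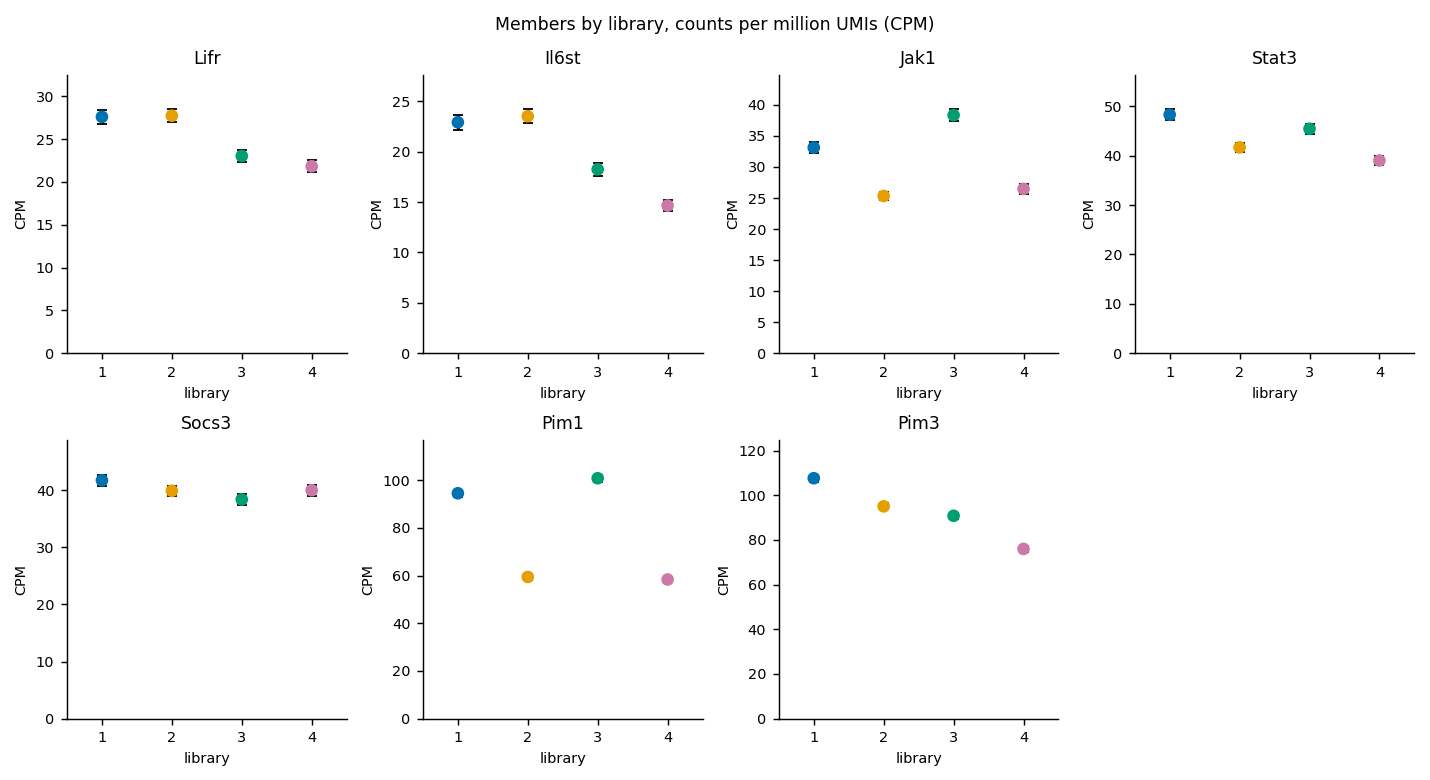
Level of each member in counts per 1000000 UMIs (CPM, y axis from 0) in libraries 1 to 4 (x axis), as points with exact 95% Poisson intervals, which are often smaller than the point. Socs3 lies between 38.4 and 41.8 CPM in all 4 libraries, while Pim1 lies near 59 CPM in libraries 2 and 4 and at 94.5 and 101 CPM in the other 2.

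A span of at least 1.5-fold between the highest and the lowest library was reached by 3 of the 7 members (Il6st, Jak1 and Pim1), against 44.7% of the 12254 genes with at least 100 counts in every library. The median span was 1.42-fold over the members and 1.45-fold over those genes, so the members' share was near the background. Jak1, at 1.51-fold, was at 1.47-fold as a mean over cells, 1.48-fold without cells over 2 times the median UMI count and 1.30-fold without the cells of a cluster led by Gzme, while Pim3 reached 1.64-fold with size factors in place of totals. Il6st and Pim1 were past 1.5-fold under each of the 5 alternatives at that fold. In the list of 50 other pathway genes, 42 passed the count minimum, their median span was 1.64-fold, and 25 reached 1.5-fold. The widest was Cntfr, the ciliary neurotrophic factor receptor, at 3.68, 1.09, 11.4 and 3.48 CPM in libraries 1 to 4. Pim2, the third Pim kinase, was at 26.7, 87.6, 57.1 and 170 CPM, and so was highest in the library where Pim1 and Pim3 were lowest. Klf4 was at 167, 105, 107 and 48.5 CPM and Tfcp2l1 at 98.8, 79.5, 66.7 and 30.6 CPM, both naive transcription factors and both lowest in library 4. Stat5a (1.90, 0.989, 1.12 and 0.689 CPM) and Jak2 (1.65, 1.41, 3.78 and 1.96 CPM) were also among the 6 widest, at levels near 1 to 4 CPM. Of the ligand list, Lif itself was at 0.683 to 1.13 CPM and Il6 at 0.00575 to 0.0180 CPM. Il6 had 1 to 3 counts in a library, at or under the floor of 3 counts.

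Cells were grouped by their transcriptomes without using the 7 members or the pathway list, and 5 clusters held at least 2% of the cells each. Cluster 1 held 94.2% of library 1 and 73.3% of library 3. Cluster 2 held 80.2% of library 2 and cluster 4 held 48.0% of library 4, and each came almost wholly from that library (97.5% and 99.2% of the cluster). These 3 clusters had the highest naive marker level of their libraries. Cluster 3, called the Spon1-led cluster here and with the formative marker Fgf5 second among its leading genes, held 18.9% of library 2 and 47.8% of library 4. Cluster 5, called the Gzme-led cluster here, held 5.49% of library 1 and 26.1% of library 3. Its leading genes were Gzme, Ctla2a, the smooth muscle actin Acta2 and the collagen gene Col1a2. A list of keratin and smooth muscle markers summed to 933 and 3078 CPM in it in libraries 1 and 3, against 33.5 and 60.0 CPM in cluster 1 of the same libraries, but no keratin was among its 10 leading genes and it was given no cell type name.

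Both receptor subunits were higher in the naive-high than in the naive-low cluster of every library. Lifr was at 29.1 CPM in the naive-high and 9.87 CPM in the naive-low cluster of library 1, and at 30.9 and 15.5 CPM in library 2. In library 3 the levels were 28.6 and 11.5 CPM, and in library 4 they were 31.9 and 11.9 CPM. The groups did not overlap, and the ratios were 2.95-fold, 1.99-fold, 2.48-fold and 2.67-fold in libraries 1 to 4. The highest Lifr level was 1.12-fold the lowest (1.06 to 1.17) within the naive-high clusters and 1.57-fold the lowest (1.29 to 1.92) within the naive-low clusters. Il6st was at 24.0 against 10.2 CPM in library 1, 26.5 against 11.8 in library 2, 20.8 against 13.1 in library 3 and 20.5 against 8.80 in library 4. Its ratios were 2.35-fold, 2.24-fold, 1.59-fold and 2.33-fold. The Il6st span between libraries was 1.29-fold (1.22 to 1.37) within the naive-high and 1.48-fold (1.34 to 1.64) within the naive-low clusters. Il6st thus spanned more than Lifr in the former and not in the latter.

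A gene was called when all 4 libraries gave a difference of 1.5-fold or more with one sign, with at least 100 counts over both cell groups in each. Lifr and Il6st were the 2 of 7 members called higher in the naive-high cluster, where 6.29% of 12213 genes were called higher, and 0 members were called lower, where 10.5% of genes were. Cells are not replicates, so no test was made. Other lists moved with the clusters. The immediate early and dissociation list was at 430, 420, 540 and 445 CPM in the naive-low and 317, 337, 345 and 335 CPM in the naive-high clusters of libraries 1 to 4. The core list of Pou5f1 and Sox2 was at 932, 1041, 681 and 960 CPM in the naive-low and 1294, 1244, 1109 and 1204 CPM in the naive-high clusters. The fibroblast list was at 8.21 to 33.9 CPM against 0.938 to 4.09 CPM, the primed or streak list at 5.92 to 9.84 CPM against 1.19 to 2.18 CPM, and the keratin and smooth muscle list at 194 to 3078 CPM against 33.5 to 82.9 CPM. The part of these lists in the members' levels was not tested. The call of Il6st rests on how library 3 was divided, since its log2 ratio of 0.67 there fell to 0.21 with finer clusters and to 0.17 with cells centred within each library. The finer clusters compared only 501 with 457 cells of library 3, and the centred ones 5416 with 462. Lifr was called under both, at log2 ratios of 0.84 to 1.56, where 4.37% of 9464 and 5.21% of 11932 genes were called higher.

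Among the other members Socs3 and Pim3 were lower and Jak1 was higher in the naive-low cluster of every library, while Pim1 differed in sign between the kinds of naive-low cluster. Socs3 was lower in the naive-low cluster of each library, at 24.3 against 43.3 CPM, 33.6 against 41.5, 31.7 against 41.7 and 33.0 against 47.6 in libraries 1 to 4. Pim3 was at 76.0 against 110, 51.8 against 106, 76.7 against 97.6 and 58.0 against 92.7 CPM. Neither gene reached 1.5-fold in every library. Between libraries Socs3 spanned 1.15-fold (1.10 to 1.19) within the naive-high clusters, where Lifr spanned 1.12-fold. Within the naive-low clusters Socs3 spanned 1.38-fold (1.22 to 1.57), where Stat3 spanned 1.16-fold. Socs3 was thus not the steadiest member within either kind of cluster. The Socs3 difference in library 3 rests on how it was divided, with a log2 ratio of 0.39 here, -0.13 (-0.35 to 0.08) with finer clusters and 0.08 (-0.06 to 0.22) with centred cells. Pim3 kept its sign in all 4 libraries under both. Pim1 was at 113 and 124 CPM in the Gzme-led cluster of libraries 1 and 3, above the 93.1 and 89.6 CPM of cluster 1 there. In the Spon1-led cluster of libraries 2 and 4 it was at 35.2 and 51.9 CPM, below the 65.2 and 62.8 CPM of their naive-high clusters. Over the 4 naive-low clusters Pim1 thus spanned 3.53-fold (3.33 to 3.74), but the Gzme-led and the Spon1-led cluster came from different libraries, and cluster and library cannot be told apart in that span. Its log2 ratio in library 3 went from -0.47 to 0.00 (-0.13 to 0.14) with finer clusters. Jak1 was highest in the Gzme-led cluster, at 38.9 CPM (library 1) and 53.6 CPM (library 3), and at 24.5 to 32.6 CPM in the other 6 groups. The Jak1 log2 ratio in library 3 also depended on the division, at -0.78 here, -1.59 with finer clusters and -1.51 with centred cells. Stat3 was at 36.2 to 41.9 CPM in the naive-low and 38.7 to 49.4 CPM in the naive-high clusters, and in library 4 the intervals of the 2 clusters overlapped. Its log2 ratio in library 3 was 0.17 here, -0.08 with finer clusters and -0.22 with centred cells.

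**Figure D2:**
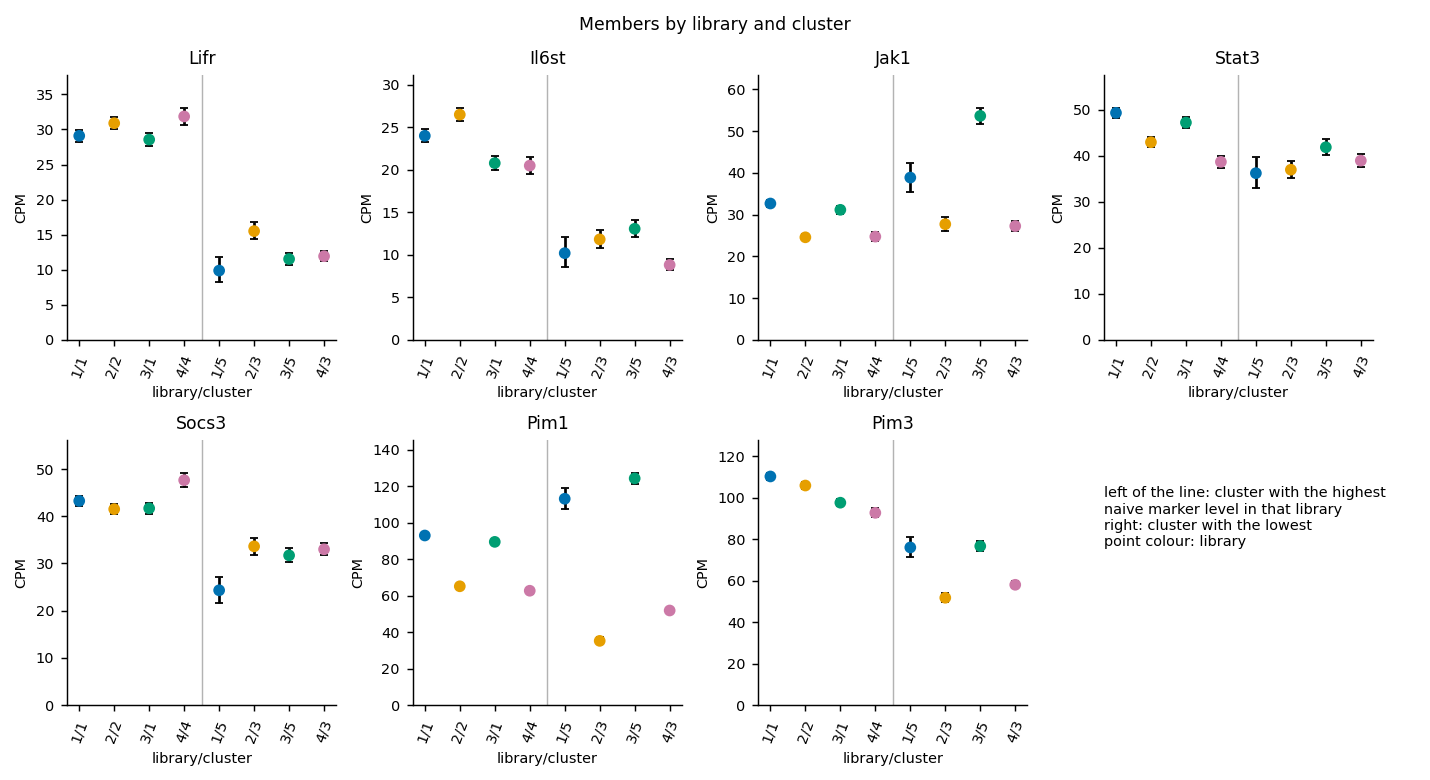
Level of each member in CPM (y axis from 0) in each library and cluster with at least 200 cells, written library/cluster on the x axis, with exact 95% Poisson intervals and colour for the library. The 4 naive-high clusters stand left of the line, where Lifr is at 28.6 to 31.9 CPM, and the 4 naive-low clusters right of it, where Lifr is at 9.87 to 15.5 CPM and Pim1 at 35.2 to 124 CPM.

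In a second view that uses no clusters, the cells of each library were ranked by the ratio of naive to formative UMIs and cut into quartiles. Lifr was lower in the naive-least quartile than in the naive-most quartile of every library, by an amount that differed widely. It was at 24.7 and 28.0 CPM in the naive-least and naive-most quartile of library 1, and at 20.3 and 29.4 CPM in library 2. Library 3 gave 12.9 and 26.4 CPM, and library 4 gave 9.52 and 30.5 CPM. The log2 ratios of naive-most to naive-least were 0.18, 0.54, 1.04 and 1.68. In libraries 1, 2 and 3 the other 3 quartiles lay close together, at 26.4 to 31.1 CPM, and in library 4 Lifr was at 17.8 CPM in the second quartile and at 29.5 and 30.5 CPM in the upper quartiles. Il6st gave log2 ratios of 0.17, 0.82, 0.72 and 1.49, from 21.1, 15.1, 12.7 and 7.89 CPM in the naive-least quartiles to 23.7, 26.7, 20.8 and 22.1 CPM in the naive-most.

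The naive-least quartile was not the same kind of cell in each library. The Gzme-led cluster made up 85.1% of it in library 3, 21.0% in library 1, 0.939% in library 2 and 2.25% in library 4. With that cluster left out and the quartiles drawn again, the log2 ratio of Lifr became -0.09 in library 1 and -0.20 in library 3, and stayed at 0.52 and 1.67 in libraries 2 and 4. Il6st likewise became -0.03 and 0.05 in libraries 1 and 3 and stayed at 0.83 and 1.57 in libraries 2 and 4. Without that cluster the intervals held 0 for both genes in library 1 and for Il6st in library 3 (-0.12 to 0.21), Lifr in library 3 was higher in the naive-least cells (-0.34 to -0.06), and in libraries 2 and 4 both genes were still lower there.

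Socs3 was at 39.1, 36.7, 33.1 and 30.3 CPM in the naive-least and at 41.0, 40.3, 40.6 and 45.3 CPM in the naive-most quartiles, with log2 ratios of 0.07, 0.14, 0.29 and 0.58. Pim3 gave log2 ratios of 0.22, 0.91, 0.39 and 0.95. Pim1 changed sign between libraries, at -0.07 and -0.38 in libraries 1 and 3 and 0.96 and 0.47 in libraries 2 and 4. Jak1 had negative ratios throughout, -0.25, -0.17, -0.89 and -0.20, with 54.3 CPM in the naive-least quartile of library 3. Without the Gzme-led cluster the ratios of libraries 1 and 3 became -0.13 and -0.10 for Socs3, 0.05 and 0.11 for Pim1 and -0.20 and -0.22 for Jak1. Jak1 was then still negative in all 4 libraries, and Pim1 was positive in libraries 2, 3 and 4. The interval held 0 for Pim1 in library 1 (-0.02 to 0.12) and for Socs3 in library 3 (-0.21 to 0.02). Stat3 stayed within 0.16 of 0 on the log2 scale in each library, between 39.2 and 47.1 CPM in all 8 outer quartiles.

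**Figure D3:**
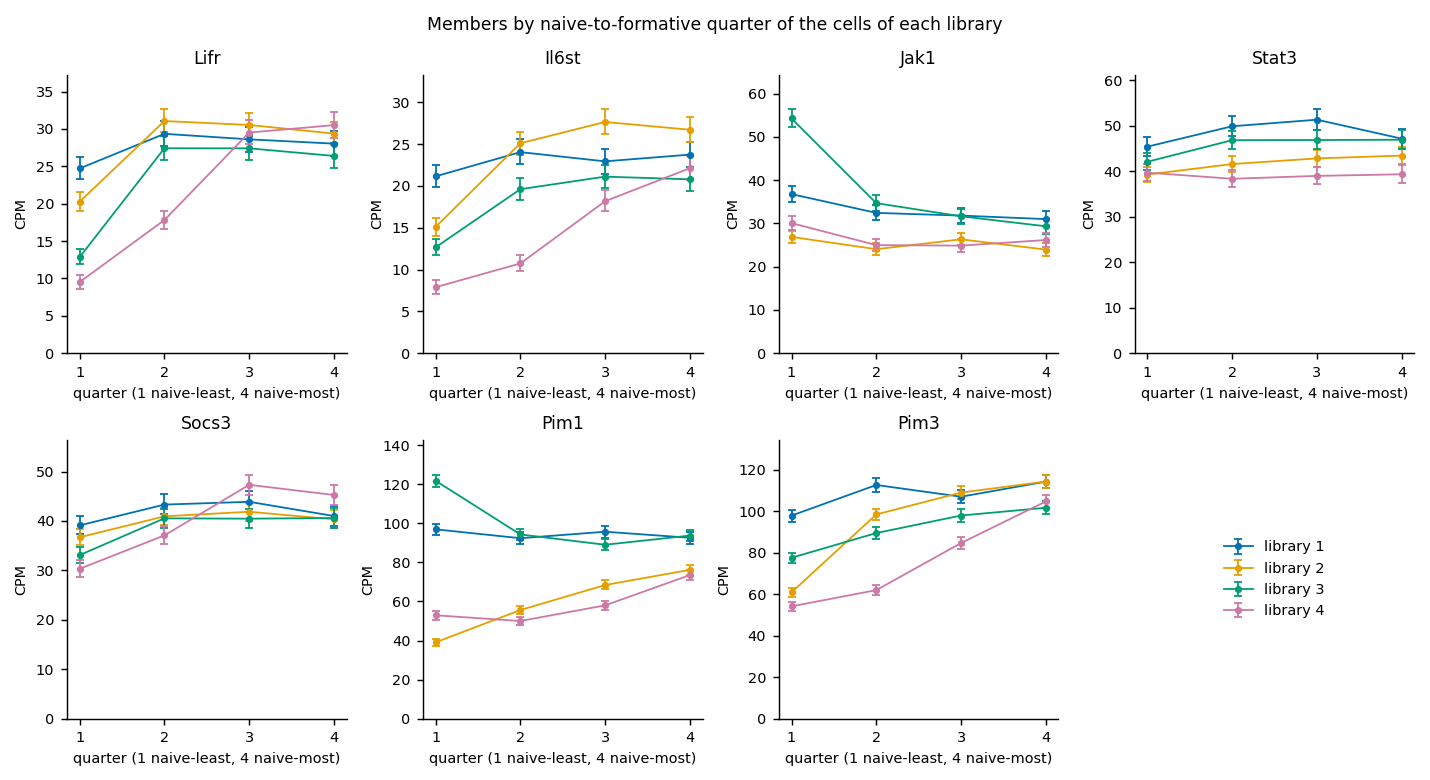
Level of each member in CPM (y axis from 0) in the 4 quartiles of the cells of each library, ordered from naive-least (1) to naive-most (4) on the x axis, with exact 95% Poisson intervals and a line per library. Lifr in library 4 climbs from 9.52 to 30.5 CPM, while in library 1 it goes from 24.7 to 28.0 CPM.

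No member reached 1.5-fold with one sign in all 4 libraries in this contrast (0 of 7 in either direction), where 0.268% of 11214 genes were called higher in the naive-most quartile and 6.22% lower. In alternatives added after the data were seen, each library was left out of the call in turn. With library 2, 3 or 4 left out 0 of 7 members were called, and 34, 41 and 43 genes were called higher (0.302%, 0.364% and 0.379%). With library 1 left out, which had the smallest Lifr and Il6st ratios, Il6st was called higher, where 4.26% of 11519 genes were called higher and 12.5% lower. The naive-least quartiles also had a higher sum of 15 immediate early and dissociation genes, 358, 416, 540 and 467 CPM against 315, 313, 338 and 324 CPM in the naive-most, and their part in the members' levels was not tested. Median depth was 19519 to 22335 UMIs in the naive-least and 17888 to 21118 in the naive-most quartiles. By library, median mitochondrial shares were 5.20%, 3.92%, 3.70% and 3.19% in the naive-least and 5.48%, 4.12%, 4.75% and 3.67% in the naive-most. Other marker lists moved with the quartiles too. Keratin and smooth muscle markers summed to 284, 207, 3096 and 652 CPM in the naive-least and 34.8, 50.2, 78.9 and 104 CPM in the naive-most quartiles of libraries 1 to 4. The fibroblast list was at 4.39, 9.51, 33.3 and 10.6 CPM against 1.29, 2.93, 1.24 and 2.24 CPM, and the primed or streak list at 2.52, 7.73, 8.71 and 6.99 CPM against 1.17, 2.11, 1.24 and 2.29 CPM. Primitive endoderm markers stayed at or below 1.16 CPM in the naive-least quartiles except in library 3 (3.34 CPM), and were at 0.341 to 0.798 CPM in the naive-most. The trophectoderm list, mostly Tfap2c, went the other way, at 39.8, 13.5, 18.5 and 5.97 CPM against 50.6, 69.9, 44.9 and 55.4 CPM. The core list was at 1179, 1090, 685 and 909 CPM in the naive-least and 1302, 1254, 1122 and 1206 CPM in the naive-most quartiles. The part of these lists in the members' levels was not tested.

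Among the other pathway genes 40 passed the count minimum in the quartiles, with 1 called higher and 4 called lower in the naive-most cells, beside 0.268% and 6.22% of all genes tested. With 1 gene higher, and a share lower close to the background, these counts say nothing particular to the list, and the genes are described one by one. Klf4 was the one called higher, at 189, 145, 155 and 104 CPM in the naive-most against 124, 35.3, 27.2 and 4.05 CPM in the naive-least quartiles of libraries 1 to 4. Pim2 moved the other way, at 8.33, 16.8, 11.7 and 29.7 CPM against 75.1, 260, 148 and 352 CPM, or 9.02-fold to 15.5-fold higher in the naive-least quartile. Pim2 was thus called where Pim1 and Pim3 were not, although all 3 genes encode kinases of one family. Cntfr was 3.30-fold to 9.76-fold higher in the naive-least quartile. The inhibitor Socs1 (1.80-fold to 3.58-fold) and Myc (1.64-fold to 2.23-fold), a growth regulator activated by STAT3, were also higher there. Socs1 thus went against Socs3 in libraries 2, 3 and 4, and in library 1 the interval of the Socs3 ratio held 0 (-0.03 to 0.17). Without the Gzme-led cluster, 38 pathway genes were tested and 0 were called in either direction, where 0.0188% of 10629 genes were called higher and 0.16% lower. The log2 ratios of libraries 1 and 3 then shrank to 0.25 and 0.32 for Klf4, -0.45 and -0.77 for Pim2, -0.40 and -0.65 for Cntfr, -0.13 and -0.54 for Socs1 and -0.27 and -0.35 for Myc, and Socs1 and Socs3 no longer had opposite signs in these libraries. In libraries 2 and 4 Klf4 was still at 2.01 and 4.73 and Pim2 at -3.96 and -3.61. Between the naive-high and naive-low clusters 8 of 42 list genes were called higher and 5 lower, beside 6.29% and 10.5% of all genes tested, so the share called lower was near the background. Of the 8, 6 were on the target list of 13 genes tested. Among these, Klf4, Tfcp2l1, Nr5a2 and Gbx2 were kept off the naive marker list only because they are on the pathway list. The clusters were chosen by naive marker level, so the count of 6 says nothing particular to STAT3 targets. The list as a whole had median log2 ratios of -0.11, 0.08, -0.12 and 0.23 in the quartiles, against -0.10, -0.11, -0.16 and -0.15 over all genes tested.

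Cells with a Socs3 UMI were then compared with cells without one, to see which members went with the feedback inhibitor within a culture. After each cell was thinned at random to 5000 UMIs, 1520, 1556, 1383 and 1302 cells of libraries 1 to 4 had at least 1 Socs3 UMI, and 6598, 6958, 6510 and 6162 had none. Levels in these classes were taken from all UMIs of the cells. Lifr was at 28.1 and 27.5 CPM in cells with and without a Socs3 UMI in library 1, 30.2 and 27.2 in library 2, 25.7 and 22.5 in library 3 and 25.4 and 21.1 in library 4. Its log2 ratios were 0.03, 0.15, 0.19 and 0.27, and the interval lay above 0 in libraries 2, 3 and 4. Pim3 was at 114 and 106, 100 and 93.9, 95.1 and 89.9, and 81.3 and 74.8 CPM. Its ratios of 0.08 to 0.12 were the most alike across libraries, and each interval lay above 0. Within the largest cluster of each library the Lifr ratios were -0.01, 0.10, 0.08 and 0.08 and the Pim3 ratios 0.07, 0.04, 0.01 and 0.04, and a second random thinning gave 0.01 for Pim3 in library 3. Stat3 ratios ran from 0.01 to 0.15, Pim1 from -0.02 to 0.10, Jak1 from -0.02 to 0.15 and Il6st from -0.15 to 0.13. The signs of these small ratios were not stable, since of the 24 values of 6 members in 4 libraries 3 changed sign with a second thinning, 5 within the largest clusters and 8 with 2 or more Socs3 UMIs required, while those of Pim3 stayed positive under all 3.

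None of these differences neared 1.5-fold. The call rule gave 0 of 6 members and 0 of 42 pathway genes in either direction, and 0 of 12253 genes higher (0%) and 1 lower (0.00816%). The gene called lower was the predicted gene Gm21761, at log2 ratios of -1.10, -4.01, -1.79 and -3.84, and it was no longer called at a minimum of 500 counts or within the largest cluster of each library. In the target list 9 of 13 genes had positive ratios in all 4 libraries, against 1238 of 12253 genes, and its median ratios were 0.08, 0.09, 0.08 and 0.16, against -0.0051, -0.0039, -0.0037 and -0.013 over all genes tested. The list gene Pim2 was lower in all 4, at log2 ratios of -0.62, -0.21, -0.43 and -0.30, each larger in size than the list's median. Cells with a Socs3 UMI also had a higher naive marker sum, 6986, 4921, 5512 and 3635 CPM against 6735, 4825, 5243 and 3178 CPM. The target list holds naive genes such as Klf4 and Tfcp2l1, so its count of signs says nothing particular to STAT3 targets. The part of the naive state in the ratios was not tested. The immediate early sum was 328, 352, 401 and 391 CPM in cells with and 325, 356, 410 and 396 CPM in cells without a Socs3 UMI.

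**Figure D4:**
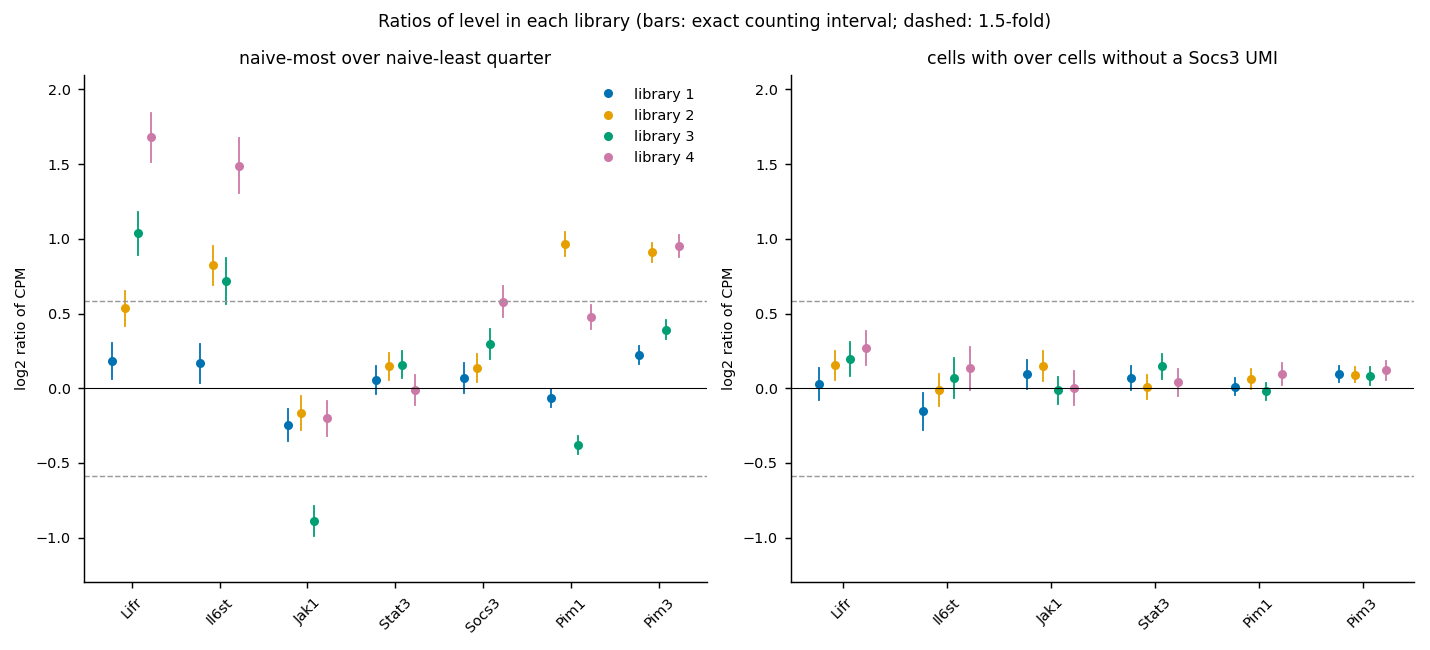
Log2 ratio of the level of each member (y axis) in the naive-most over the naive-least quartile (left) and in cells with over cells without a Socs3 UMI (right), one point per library with its 95% counting interval, dashed lines at 1.5-fold. Lifr reaches 1.68 in library 4 on the left and 0.27 on the right, and Jak1 is below 0 in all 4 libraries on the left.

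The share of cells with a UMI was set beside the share that a Poisson draw of the same mean would give, at 5000 UMIs per cell, to see how unevenly each transcript was spread over cells. Socs3 was found in 18.7% of cells (exact binomial interval 17.9 to 19.6) in library 1, 18.3% in library 2, 17.5% in library 3 and 17.4% in library 4. The Poisson shares were 19.2%, 18.8%, 18.4% and 18.5%, so a small excess of cells without Socs3 was measured, and in libraries 3 and 4 the Poisson share lay above the interval. Without thinning the Socs3 shares were 53.1%, 53.9%, 50.6% and 50.9%. No cell type known to lack these transcripts was at hand, so a background share of free RNA is not given.

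Pim1 was found in 35.6%, 23.7%, 35.8% and 22.8% of cells, below its Poisson shares of 37.7%, 24.8%, 38.6% and 25.0% in each library. The same held for Pim3, found in 40.8%, 35.5%, 35.9% and 29.6% of cells against Poisson shares of 41.9%, 37.2%, 37.2% and 31.7%, and for both genes the Poisson share lay above the interval in all 4 libraries. Stat3 was found in 21.5%, 18.7%, 19.7% and 17.1% of cells against Poisson shares of 21.6%, 19.1%, 19.9% and 17.2%, and its Poisson share lay within the interval in each library. The variance beyond Poisson, divided by the squared mean, was 0.31, 0.32, 0.55 and 0.74 for Socs3 and 0.29, 0.35, 0.54 and 0.83 for Pim1. The median over the 5112 to 5366 genes with a mean of at least 0.1 UMIs was 0.0791 to 0.116. For Stat3 it was 0.02, 0.22, 0.05 and 0.01. The other members ran from 0.12 to 0.61 (Lifr), 0.11 to 0.49 (Jak1), 0.17 to 0.48 (Il6st) and 0.14 to 0.48 (Pim3). The order of the members differed between libraries. Socs3 and Pim1 were the highest in libraries 1 and 4, but in library 3 Lifr (0.61) was above both. Stat3 was lowest in libraries 1, 3 and 4, but in library 2 it was above Lifr (0.19), Jak1 (0.17) and Pim3 (0.20). The members' means of 0.0711 to 0.542 UMIs per cell leave this measure imprecise.

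**Figure D5:**
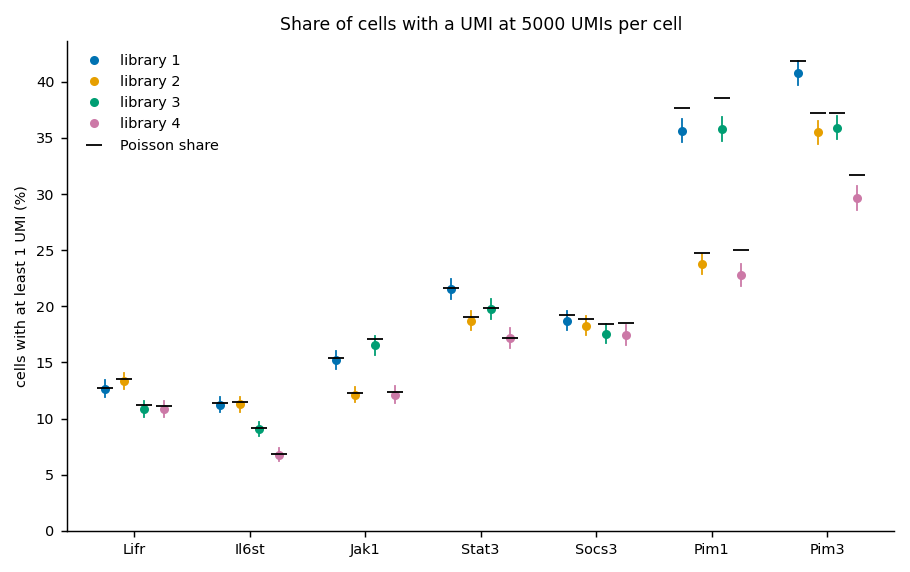
Share of cells with at least 1 UMI of each member (y axis, %, from 0) at 5000 UMIs per cell in libraries 1 to 4, with exact 95% binomial intervals, and black dashes for the Poisson share of the same mean. The dashes lie above the points for Pim1 and Pim3 in all 4 libraries, at 37.7% against 35.6% for Pim1 in library 1, and on the points for Stat3.

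Pairs of members were found in the same cell about as often as their separate shares give. Over the 21 pairs and 4 libraries the ratio of observed to expected cells ran from 0.889 to 1.21. For Lifr with Socs3 it was 0.983, 1.15, 1.17 and 1.21 in libraries 1 to 4, with 189, 239, 175 and 171 cells holding both. The interval lay above 1 in libraries 2, 3 and 4 for this pair, in libraries 2 and 4 for Pim1 with Pim3 (1.10 and 1.13), and in library 2 for Il6st with Pim1 (1.16). It lay below 1 for none of the 84 ratios, and these intervals treat the separate shares as known. Pairs were counted over whole libraries, which mix clusters. Lifr, Il6st, Socs3, Pim1 and Pim3 were each lower in the Spon1-led than in the naive-high cluster of libraries 2 and 4. Lifr and Socs3 were also lower in the Gzme-led cluster of libraries 1 and 3. The Lifr ratio between the Socs3 classes was smaller within the largest cluster of libraries 2, 3 and 4. No values are given for pairs within a cluster or pairs of other genes, and the part of the clusters was not tested.

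Across the 16 sums of library and quartile, the genes whose log2 level ran most like each member were listed from the 11794 genes with at least 20 counts in every sum. These points share 4 libraries and 1 score, so the correlations describe the pattern and carry no test. Lifr ran with Jade1 (Pearson r = 0.993), the naive marker Zfp42 (0.988) and Gm19705 (0.988), where Zfp42 is itself part of the score that made the quartiles. Il6st ran with Mov10 (0.988), Ranbp17 (0.987) and Trps1 (0.986). Jak1 ran with Pdrg1 (0.976), Faf2 (0.973) and Dynlt3 (0.973), and Stat3 with Arf6 (0.972), Qpct (0.969) and Coq6 (0.961). Socs3 ran with Ly6g6d (0.927), its fellow member Lifr (0.926) and Gm48170 (0.926). Pim1 ran with Tpp1 (0.972), Cd63 (0.963) and Cox7a2l (0.960), and Pim3 with Cd9 (0.985), Gjb5 (0.980) and Zc3hav1 (0.973). Among the members the highest correlation was that of Il6st with Pim3 (0.934), followed by Lifr with Il6st (0.927) and Lifr with Socs3 (0.926). Jak1 had negative correlations with Lifr (-0.42), Socs3 (-0.41) and Il6st (-0.23).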

How the data were processed

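Single cells of 4 ESC cultures were profiled with 10x Genomics Chromium 3′ v3 chemistry. The authors ran Cell Ranger 6.1.2, with 10000 expected cells per library, on mm10 and joined the libraries with its aggregation step, which subsamples reads to a similar depth. The deposited values are UMI counts of the joined libraries, so UMI totals and depths per library are those after that step. The labelled samples could not be tied to the library numbers. The filter of the study kept barcodes with UMIs and genes at or above the library mean minus 1 SD and at most 10% mitochondrial UMIs (31989 of 41142). Levels are counts per 1000000 UMIs (CPM) with exact Poisson intervals, and ratios have exact conditional binomial intervals, all covering counting error only. Cells are not replicates and the libraries carry no group, so no p-value is given. The edgeR test planned for WT against hKO was not made.

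Cells were clustered by the Leiden method (leidenalg 0.10.2, resolution 0.2, 20 components, 20 neighbours) on 2000 variable genes, after 12 member and pathway genes among the most variable were left out, with no batch correction. Clusters of 104 and 52 cells were not described. No doublet caller was run, and cells over 2 times the median UMI count of their library were left out as an alternative. Quartiles used log2((naive + 1)/(formative + 1)) at 5000 UMIs per cell, with Utf1 left out of the formative list. Naming followed a written rule: the members, the called and the 6 widest pathway genes, genes called in the Socs3 classes, and the 3 most alike genes by Pearson r of log2(CPM + 1). The members, lists and tests were chosen with earlier results of these data known. The call rule was checked on simulated counts with Poisson noise only. These held no cell groups and no variance beyond Poisson, so the check does not cover either. Python 3.11.15, scipy 1.17.1 and R 4.3.3 were used, with GENCODE M21 and RefSeq for positions and promoters. Alternatives were other cell filters, scalings, clusterings, thinning seeds, folds and count minimums.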

Additional observations from a re-analysis of the deposited data

How the results depend on the processing

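No paired analysis was possible because the library numbers are not tied to labelled samples. For the same reason the edgeR test of WT against hKO, DESeq2, the fit without a filter on low counts, the replicate block and the fits leaving out a replicate were not run. Without a label no value here bears on Srrm2, and with 1 culture per library number the intervals cover counting error only.

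By library, 0 members and 2428 genes (19.8%) reached a fold of 2, and the other 5 alternatives left 2 to 4 members (Jak1 lost under 3, Pim3 gained under 1) and 43.4% to 45% of genes past 1.5-fold. Between clusters, 1 member and 414 genes (4.37% of 9464) were called higher at resolution 0.4, and 1 member and 622 genes (5.21% of 11932) with cells centred within each library. Of the 28 cluster ratios of members, 4 changed sign at resolution 0.4, with shifts of up to 0.81 on the log2 scale, and 2 with centring (up to 0.72). In the quartiles 0 members were called under any of the 9 alternatives that kept all 4 libraries in the call. Genes called higher numbered 17 with 3 in place of 4 groups of cells per library, 58 with Utf1, 78 with unthinned scores, 17 without cells over 2 times the median UMI count and 10 at a minimum of 500 counts, where 239 were called lower. At the lower fold tried there were 283 higher and 1550 lower. Without the Gzme-led cluster 2 were higher and 17 lower, and Lifr in library 3 turned to -0.198 on the log2 scale. In alternatives added after the data were seen, leaving library 2, 3 or 4 out of the call gave 0 members and 34, 41 and 43 genes higher, and leaving out library 1 gave 1 member and 491 genes higher (4.26% of 11519) and 1441 genes lower. Of the 28 quartile ratios, 10 changed sign without the Gzme-led cluster, 2 without cells over 2 times the median UMI count, 1 with a second seed and 0 under the other 4 alternatives with such values.

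For cells with a Socs3 UMI, genes called lower numbered 2 with a second seed, 37 with 2 or more Socs3 UMIs, and 0 within the largest cluster of each library or at 500 counts. At the lower fold tried there were 22 lower and 1 higher. Unthinned Socs3 shares were 53.1%, 53.9%, 50.6% and 50.9%. The causes of these shifts were not tested, other than that unthinned cells hold more UMIs.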

Other observations

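Of the 13 genes of the pathway list called between the naive-high and naive-low clusters, those not named above were named after their values were seen. Nr5a2, an orphan nuclear receptor of naive ESCs, was higher in the naive-high cluster at log2 ratios of 2.66, 2.24, 2.59 and 2.63. Gbx2 (1.00 to 2.04) and Icam1 (1.46, 0.99, 1.47 and 1.20), both known STAT3 targets, were higher in that cluster as well. Bcl3, Jak3 and Pias2 were higher at log2 ratios of 0.60 to 1.16. Lower in the naive-high cluster were Ptpn11 (-0.92, -0.62, -0.94 and -0.71), which encodes the phosphatase SHP2 that links gp130 to ERK signalling, and Stat5b (-1.03, -0.99, -0.90 and -1.22). These clusters differ in many genes, with 6.29% of genes called higher and 10.5% lower, so the values describe the clusters and not the pathway alone. In the quartiles Gbx2 was lower in the naive-most cells of library 1, at -0.32. Without the Gzme-led cluster, the log2 quartile ratios in libraries 1 and 3 were -0.59 and -0.69 for Gbx2 and -0.10 and -0.13 for Icam1. Those of Nr5a2 were -0.07 and 0.02, with intervals that held 0. The intervals also held 0 there for Bcl3 (0.03 and 0.03), Jak3 (-0.16 and -0.08) and Pias2 (-0.01 and -0.04). In libraries 2 and 4 these genes kept positive ratios, with an interval that held 0 for Gbx2 in library 2. Values with finer or centred clusters are not given for these genes.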
